A study of Mus musculus with 4 samples.

Results

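The genes described here are the 37 genes of the Fanconi anemia (FA), homologous recombination and DNA damage checkpoint pathways that were listed by symbol, out of 39186 genes in the expression table. They were taken by exact match of the gene name, and all 37 were found once. RNA was sequenced from LSK cells, the lineage-negative Sca-1+ c-Kit+ fraction of mouse fetal liver that is enriched for hematopoietic stem cells. There were 2 *Pich*-KO and 2 *Pich*-WT samples, all on the C57BL/6 strain and with no treatment named. *Pich*, listed as *Ercc6l*, encodes a helicase that binds the ultrafine DNA bridges of anaphase, and the KO allele of the mouse line lacks a few bases of the second exon in every tissue. The study sorted fetal liver cells from mid-gestation embryos, while the labels of these libraries give no age, no number of embryos and no word on pooling.

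When replication forks meet a crosslink between the strands of DNA, the FA core complex attaches ubiquitin to the FANCD2-FANCI pair, which directs nucleases to cut the lesion out. The resulting break is resected by MRE11, RAD50, NBN and their partners and repaired by homologous recombination, in which BRCA1, PALB2 and BRCA2 act together on the resected DNA. ATM and ATR are the kinases that sense breaks and stalled forks and halt the cell cycle through CHK2 and CHK1. Inherited loss of FA genes causes bone marrow failure, and stem cells of the blood depend on this pathway during their expansion in the fetal liver. Many of these genes are transcribed in a cell cycle dependent manner, with a peak around S phase.

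Promoter sequences of 4 of the genes higher in *Pich*-KO, described below, are shown because short motifs known from cell cycle promoters occur in them. Each is 300 bases of RefSeq sequence on GRCm38.p6, from 250 bases before the annotated start to 50 bases after it, written 5′ to 3′ on the strand of the gene. Capitals mark the E2F letters (TTTCCCGC, TTTGGCGC or TTTCGCGC on either strand) and the CCAAT letters. The window of *Brca1* is chr11:101551906-101552205 on the minus strand, that of *Bard1* chr1:71102923-71103222 on the minus strand, that of *Topbp1* chr9:103305077-103305376 on the plus strand and that of *Mdc1* chr17:35841248-35841547 on the plus strand.
Brca1: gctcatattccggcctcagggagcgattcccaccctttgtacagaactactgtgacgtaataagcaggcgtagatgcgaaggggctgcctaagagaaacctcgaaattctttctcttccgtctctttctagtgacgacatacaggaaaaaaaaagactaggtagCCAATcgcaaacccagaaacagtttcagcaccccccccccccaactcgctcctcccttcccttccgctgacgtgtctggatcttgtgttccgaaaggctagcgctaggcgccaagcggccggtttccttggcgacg
Bard1: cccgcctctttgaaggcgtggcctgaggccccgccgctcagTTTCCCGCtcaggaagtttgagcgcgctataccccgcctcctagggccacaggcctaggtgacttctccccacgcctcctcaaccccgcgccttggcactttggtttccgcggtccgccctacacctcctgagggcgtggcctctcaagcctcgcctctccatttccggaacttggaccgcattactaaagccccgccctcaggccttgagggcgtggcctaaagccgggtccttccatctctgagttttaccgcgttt
Topbp1: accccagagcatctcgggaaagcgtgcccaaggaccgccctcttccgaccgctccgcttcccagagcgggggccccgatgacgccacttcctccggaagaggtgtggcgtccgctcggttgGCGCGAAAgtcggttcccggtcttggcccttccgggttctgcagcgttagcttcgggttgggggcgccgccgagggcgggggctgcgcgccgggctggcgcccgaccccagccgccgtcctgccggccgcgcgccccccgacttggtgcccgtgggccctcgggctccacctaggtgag
Mdc1: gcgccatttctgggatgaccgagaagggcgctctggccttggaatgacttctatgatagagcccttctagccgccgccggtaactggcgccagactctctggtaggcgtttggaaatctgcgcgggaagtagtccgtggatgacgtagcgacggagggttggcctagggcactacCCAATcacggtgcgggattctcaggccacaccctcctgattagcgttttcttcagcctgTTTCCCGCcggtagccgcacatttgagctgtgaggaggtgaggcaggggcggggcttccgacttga

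Counted from the RefSeq start, the CCAAT letters of *Brca1* begin at −86 and those of *Mdc1* at −75. For *Bard1*, *Topbp1* and *Mdc1* this start differs from that of the gene model given below, so the positions hold for the RefSeq start only. The E2F letters begin at −209 in *Bard1*, at −129 in *Topbp1*, where they lie on the opposite strand, and at −16 in *Mdc1*. A promoter of this length was found for 30 of the 37 genes and for 32851 genes in all. The 32851 promoters were not matched to the 37 genes for gene type or expression. E2F letters occurred in 7 of the 30 promoters, or 23.3%, against 1.84% of all promoters, and the 7 were *Bard1*, *Brca2*, *Chek2*, *Fancg*, *Mdc1*, *Rad51c* and *Topbp1*. CCAAT occurred in 16 of the 30, or 53.3%, against 37.4% of all promoters. The ETS letters CCGGAAG occurred in 9, or 30%, against 8.86%. The letters TTTGAA, the CHR element of genes expressed late in the cycle, occurred in 3, or 10%, against 17.9%. Of the genes higher in *Pich*-KO, 13 had a promoter sequence, and 3 of these held E2F letters, 7 CCAAT, 4 ETS and 2 CHR letters. The other promoters with E2F letters were those of *Brca2*, *Chek2*, *Fancg* and *Rad51c*, which were not among the higher genes. All motifs were searched on both strands, and a match describes the letters and not the binding of a factor. *Atr*, with a larger difference than *Topbp1*, held neither E2F nor CCAAT letters. A link of these motifs with the differences was not tested.

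The libraries held 14703215 to 20933919 reads on genes. *Ercc6l* itself had 1187 ± 63.8 normalized counts with the KO allele and 717 ± 78.6 with the WT allele (SD, n = 2 each). Its transcript is still counted, so its level does not check the genotype. *Pich*-WT sample 2 stood apart, with 699 *Xist* reads against 4 to 13 in the others and 0 reads on 4 Y-linked genes against 1607 to 2848. This is the pattern of female cells, while the other samples had that of male cells, so sex was not balanced between the groups. Of the genes described here, *Fancb* alone is X-linked. Values are reads on a gene divided by a size factor of the sample, called normalized counts here. The test was limma on log2(normalized count + 1), run over 32428 genes whose mean was 1 or more, with Benjamini-Hochberg adjustment over all of them and a threshold of 0.05. A log2 fold change is *Pich*-KO minus *Pich*-WT after this transformation, and comes out too small for genes of low count. Nothing in the labels says that samples of a group came from separate embryos. The *Pich*-WT samples differed in these sex-linked reads, so they were not repeats of the same material. P-values measure the spread between these samples, which may be technical in *Pich*-KO.

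In the sorted *Pich*-KO samples, the 37 genes were more often higher than lower against *Pich*-WT. The *Pich*-WT samples also held more macrophage, erythroid and endothelial transcripts, described below. All 37 passed the filter on the mean, 14 were higher at an adjusted p of 0.05 by limma and 0 were lower. The share of 37.8% stands beside a background of 7.58% of all genes tested that were higher and 9.6% that were lower. The means of the 37 genes ran from 12.7 (*Fancf*) to 2931 (*Usp1*) with a median of 560. Among the 12184 protein-coding genes within this range, 13.8% were higher and 22.3% lower. At an unadjusted p under 0.05, 21 of the 37 were higher and 1, *Chek2*, was lower, where the background is 13.7% higher and 15% lower. With edgeR on the recovered reads and TMM scaling, 18 were higher and 0 lower, against a background of 18.6% higher and 20.7% lower of 16608 genes. In 25 of the 37 both *Pich*-KO samples lay above both *Pich*-WT samples, where the background is 28.9% of all genes and 32.8% of the protein-coding genes in this range, and in 5 they lay below, where it is 27.2% and 42.2%. The groups overlapped in the other 7. The plot of the normalized counts in each sample shows all 37.

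**Figure D1:**
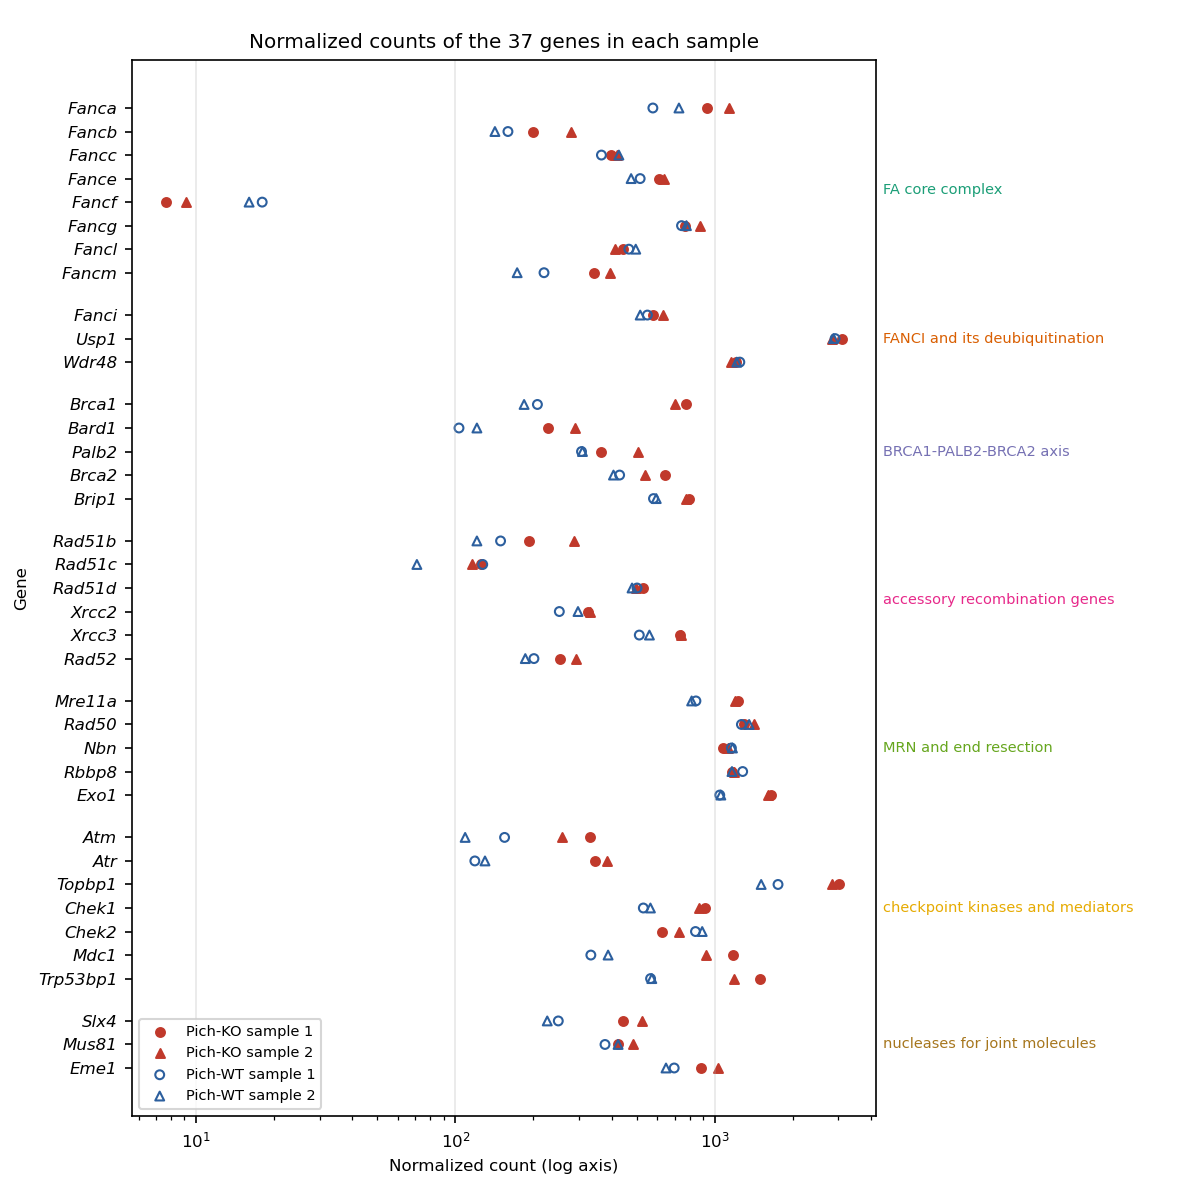
Normalized counts (log axis) of the 37 genes in each sample, grouped by role. Filled red symbols are the 2 *Pich*-KO samples and open blue symbols the 2 *Pich*-WT samples. The symbols of *Brca1*, *Atr*, *Mdc1* and *Trp53bp1* are widely separated, and those of *Usp1*, *Rad50* and *Rad51d* overlap.

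The median log2 fold change of the 37 genes was 0.48, against 0.02 over all genes tested and −0.09 over the protein-coding genes of the same range. Fold changes were positive for 31 and negative for 6 genes, and ran from −0.94 for *Fancf* to 1.91 for *Brca1*. Relative to the *Pich*-WT mean, *Pich*-KO sample 1 had a median log2 ratio of 0.40 over the 37 genes, and *Pich*-KO sample 2 one of 0.48. Their summed normalized counts were 29634 and 29617 (*Pich*-KO) against 22380 and 22208 (*Pich*-WT), 1.33-fold higher. For a single gene, 2 samples in each group allow an exact permutation test (two-sided) no p below 0.333, and the adjusted p-values therefore lean on a variance pooled over genes by limma. Where the prior variance was held constant and did not follow the mean, 0 of the 37 genes passed, although 11 were higher at an unadjusted p under 0.05, as were 10.3% of all genes. Limma also called 0 when any of the 4 samples was left out. At an unadjusted p under 0.05 it then had 20 genes higher without *Pich*-KO sample 1 (background 12.2%), 16 without *Pich*-KO sample 2 (10.7%), 12 without *Pich*-WT sample 1 (9.54%) and 14 without *Pich*-WT sample 2 (8.52%). edgeR called 20 of the 37 higher without *Pich*-KO sample 1 (background 20.2%), 17 without *Pich*-KO sample 2 (17.2%), 11 without *Pich*-WT sample 1 (9.67%) and 11 without *Pich*-WT sample 2 (9.62%), the sample that stood apart. *Chek2* was lower past the threshold in edgeR without *Pich*-KO sample 2, and in no other fit that was run.

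**Figure D2:**
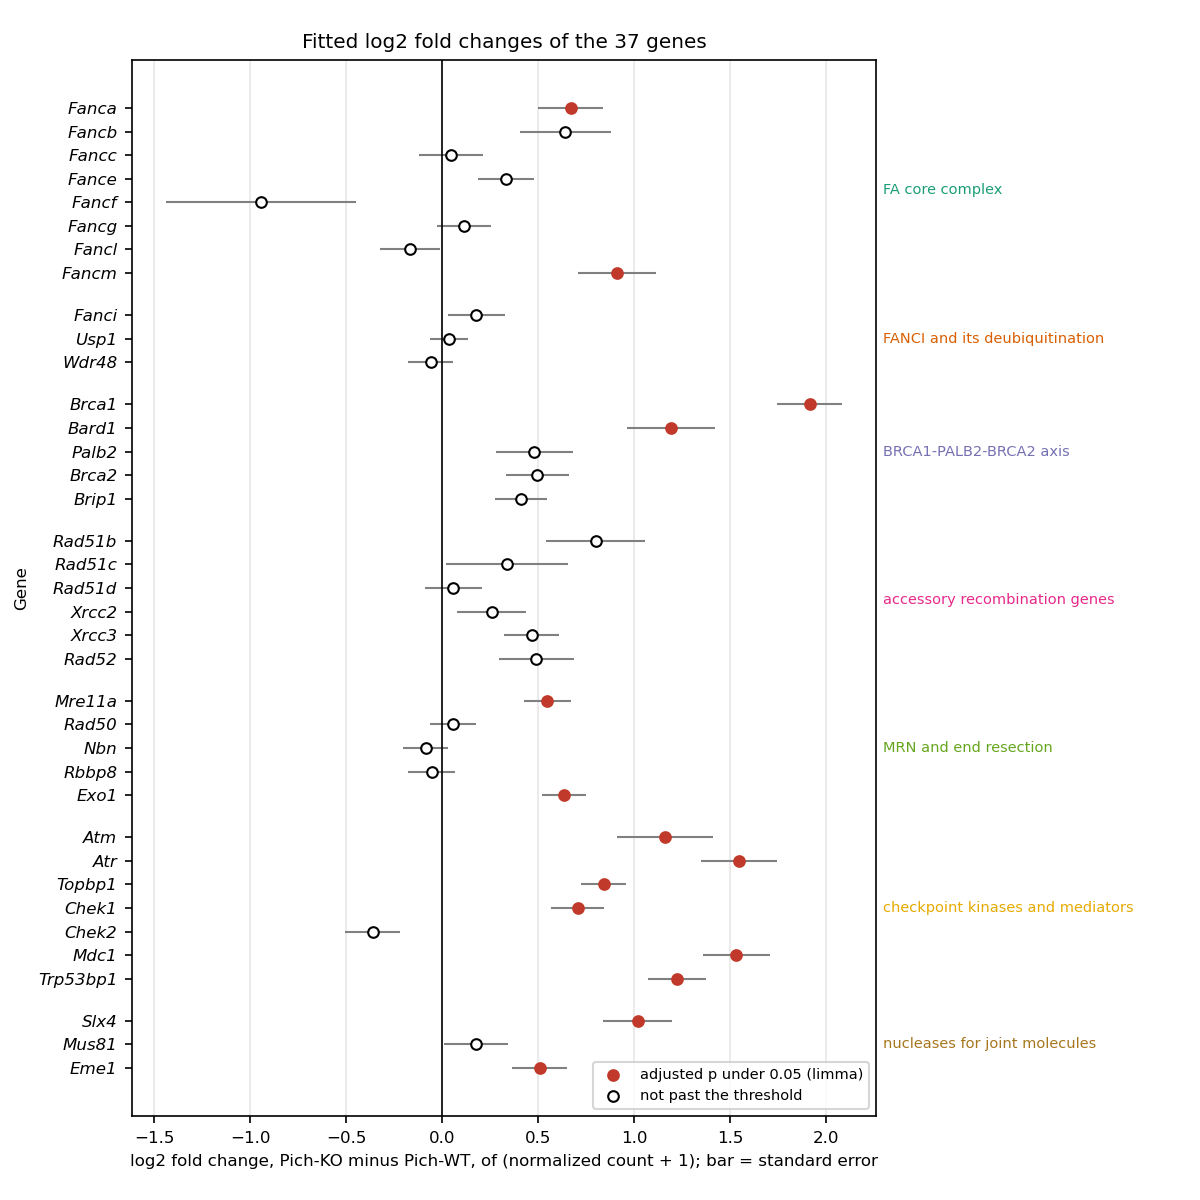
Fitted log2 fold changes (*Pich*-KO minus *Pich*-WT, log2 of normalized count + 1) of the 37 genes by role, with bars for the standard error. Filled points are the 14 genes past an adjusted p of 0.05 by limma, 6 of which belong to the 7 checkpoint kinases and mediators.

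The checkpoint kinases and mediators had the highest median of the 7 roles, with 6 of 7 higher, 0 lower and a log2 fold change of 1.16 at the median. The exception was *Chek2*. For the counts of each role, the background of higher genes is 7.58% of all genes and 13.8% of the protein-coding genes in the expression range. *Atr* (chromosome 9, 95857597 to 95951781, on GRCm38 as are all coordinates here) encodes the kinase that responds to single-stranded DNA at stalled forks. It had 346 and 384 normalized counts (*Pich*-KO) against 119 and 130 (*Pich*-WT). The *Pich*-KO samples were both more than any *Pich*-WT sample, 2.93-fold on the means, with a log2 fold change of 1.54 (standard error, SE, 0.20, adjusted p = 0.0013 by limma). *Atm* (chromosome 9, 53439149 to 53536740), the kinase of the double-strand break response, had 331 and 257 against 155 and 109. The groups did not overlap, although the samples of each group were spread widely, and the log2 fold change of 1.16 had a standard error of 0.25 (adjusted p = 0.0151 by limma).

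*Topbp1* (chromosome 9, 103305215 to 103350428), an activator of ATR, stood at 3017 and 2823 (*Pich*-KO) against 1755 and 1511 (*Pich*-WT), a log2 fold change of 0.84 (SE 0.12, adjusted p = 0.00197 by limma). *Chek1* (chromosome 9, 36708482 to 36727065), which encodes the kinase that ATR activates, had 917 and 870 against 531 and 565. Its samples agreed closely within each group, and its log2 fold change was 0.70 (SE 0.14, adjusted p = 0.00973 by limma). *Chek2* (chromosome 5, 110839979 to 110874145), the kinase downstream of ATM, ran the other way in every sample, with 627 and 728 (*Pich*-KO) against 843 and 895 (*Pich*-WT). Its log2 fold change of −0.36 (standard error 0.14) did not pass the threshold (adjusted p = 0.139 by limma).

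The mediators that gather at marked chromatin around a break were among the genes with the largest rises. *Mdc1* (chromosome 17, 35841515 to 35859670), which binds phosphorylated H2AX, had 1174 and 923 normalized counts (*Pich*-KO) against 333 and 388 (*Pich*-WT). This was 2.91-fold higher on the means, with a log2 fold change of 1.53 (SE 0.17, adjusted p = 0.000778 by limma). *Trp53bp1* (chromosome 2, 121193281 to 121271407), the 53BP1 gene, whose product limits resection, had 1492 and 1183 against 566 and 572. The *Pich*-KO samples differed more from each other than the nearly equal *Pich*-WT samples did, and the log2 fold change was 1.22 (SE 0.15, adjusted p = 0.0012 by limma).

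All 5 genes of the BRCA1-PALB2-BRCA2 axis had both *Pich*-KO samples above both *Pich*-WT samples, and 2 passed the threshold. Over all genes tested, 28.9% were separated in this way and 7.58% were higher past the threshold. *Brca1* (chromosome 11, 101488764 to 101551955), needed for resection, had the largest change of all 37 genes. It had 778 and 700 normalized counts (*Pich*-KO) against 207 and 184 (*Pich*-WT). The groups were 3.78-fold apart on the means, with a log2 fold change of 1.91 (SE 0.17, adjusted p = 0.000257 by limma). *Bard1* (chromosome 1, 71027498 to 71103146), the obligate partner of BRCA1, had 228 and 289 against 103 and 121, a 2.31-fold difference. Its log2 fold change was 1.19 (SE 0.23, adjusted p = 0.00892 by limma), so both genes of this heterodimer were higher.

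*Palb2*, the bridge between BRCA1 and BRCA2, *Brca2*, a central gene of homologous recombination, and *Brip1*, a helicase bound to BRCA1, did not pass the threshold. Their log2 fold changes were 0.48, 0.49 and 0.41, with adjusted p-values of 0.162, 0.08 and 0.0809 (limma). *Brca2* and *Brip1* passed in edgeR with TMM scaling, with adjusted p-values of 0.0318 and 0.0304. *Brca2* had 646 and 539 normalized counts (*Pich*-KO) against 430 and 407 (*Pich*-WT).

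Of the 8 genes of the FA core complex, 2 were higher and 0 lower, with a median log2 fold change of 0.22. *Fancm* (chromosome 12, 65075603 to 65132058), the translocase that anchors the complex to DNA, had 341 and 394 normalized counts (*Pich*-KO) against 220 and 173 (*Pich*-WT). The groups were separated, with a log2 fold change of 0.91 (SE 0.20, adjusted p = 0.018 by limma). *Fanca* (chromosome 8, 123268300 to 123318576), a scaffold of the complex, had 933 and 1139 against 578 and 728. Its log2 fold change was 0.67 (SE 0.17, adjusted p = 0.0311 by limma). With no filter on the mean its adjusted p (limma) was 0.0772, and with a replicate block 0.00114.

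*Fancb*, also of the core complex, had 198 and 279 against 159 and 142 and missed the threshold (log2 fold change 0.64, adjusted p = 0.114 by limma). *Fancl*, the ubiquitin ligase of the complex, had the opposite order, 444 and 413 against 467 and 496 (log2 fold change −0.17, adjusted p = 0.544 by limma). *Fancc* was nearly level, with 398 and 418 (*Pich*-KO) against 366 and 427 (*Pich*-WT) (log2 fold change 0.05, adjusted p = 0.898 by limma). *Fance* and *Fancg* had log2 fold changes of 0.33 and 0.11 and did not pass. *Fancf* had 7 and 8 reads (*Pich*-KO) against 23 and 16 (*Pich*-WT), too few for a firm statement, and its log2 fold change of −0.94 had a standard error of 0.50 (adjusted p = 0.266 by limma).

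*Fanci*, the partner of FANCD2, and the deubiquitinase genes *Usp1* and *Wdr48*, whose products remove ubiquitin from that pair, held no called gene. *Usp1* (chromosome 4, 98923810 to 98935543) had the highest level per kb of the 37 genes, 775 normalized counts per kb in *Pich*-WT and 795 in *Pich*-KO. Its samples had 3103 and 2833 normalized counts (*Pich*-KO) against 2914 and 2873 (*Pich*-WT), and the *Pich*-WT values lay between the *Pich*-KO values. The log2 fold change was 0.04 with a standard error of 0.10, and that of *Wdr48* was −0.06 with a standard error of 0.12. *Wdr48* had 1207 and 1161 against 1250 and 1217. *Fanci* had a log2 fold change of 0.18 (adjusted p = 0.503 by limma).

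The 6 accessory genes of recombination, *Rad51b*, *Rad51c*, *Rad51d*, *Xrcc2*, *Xrcc3* and *Rad52*, all had positive fold changes, from 0.06 for *Rad51d* to 0.80 for *Rad51b*, and none passed the threshold in limma. RAD52 anneals single strands of DNA. *Xrcc3* came nearest, with 734 and 745 normalized counts (*Pich*-KO) against 512 and 560 (*Pich*-WT) (log2 fold change 0.46, adjusted p = 0.0624 by limma). It passed in edgeR with TMM scaling (adjusted p = 0.0265), as did *Rad51b* (adjusted p = 0.0468). *Rad51b* had 192 and 287 against 149 and 121. *Rad51c* had 125 and 116 against 127 and 71.0, so the groups overlapped, and without *Pich*-WT sample 2 its log2 fold change was −0.078.

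Of the 5 genes of the MRN complex and end resection, 2 were higher. *Mre11a* (chromosome 9, 14784654 to 14837123), the nuclease of MRN, had 1228 and 1198 normalized counts (*Pich*-KO) against 846 and 815 (*Pich*-WT). The samples of each group lay close together, and the log2 fold change was 0.55 (SE 0.12, adjusted p = 0.0184 by limma). *Exo1* (chromosome 1, 175880581 to 175913489), an exonuclease of long-range resection, had 1656 and 1611 against 1046 and 1056, a log2 fold change of 0.64 (SE 0.11, adjusted p = 0.00669 by limma). The partners of MRE11 were near level. *Rad50* had 1303 and 1424 against 1268 and 1358 (log2 fold change 0.05), and *Nbn* had 1072 and 1123 against 1160 and 1171 (log2 fold change −0.09). *Rbbp8*, the CtIP gene, which starts resection with MRN, had 1164 and 1191 against 1282 and 1166 (log2 fold change −0.05, standard error 0.12). Whether the change of *Mre11a* differs from that of its partners was not tested.

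Of the nucleases that cut joint molecules, *Slx4* and *Eme1* were higher. *Slx4* (chromosome 16, 3979105 to 4003770), a scaffold for several nucleases, had 444 and 523 normalized counts (*Pich*-KO) against 249.3 and 226 (*Pich*-WT). The difference was 2.03-fold, with a log2 fold change of 1.02 (SE 0.18, adjusted p = 0.00603 by limma). *Eme1* (chromosome 11, 94644996 to 94653964) had 887 and 1033 against 698 and 649. Its log2 fold change was 0.51 (SE 0.14, adjusted p = 0.0463 by limma), the closest to the threshold of the 14, and its adjusted p was 0.078 without a filter on the mean. *Mus81*, the catalytic partner of EME1, had 424 and 482 against 378 and 424, and did not pass (log2 fold change 0.18, adjusted p = 0.555 by limma).

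Fold changes of the 14 higher genes stayed positive whichever sample was left out, with a lowest value of 0.40, for *Eme1* without *Pich*-KO sample 2. Without *Pich*-WT sample 2, edgeR kept 11 of the 14 past the threshold, the others being *Eme1*, *Fancm* and *Mre11a*. Without *Pich*-WT sample 1 it also kept 11, the others being *Eme1*, *Fanca* and *Mre11a*. Without either *Pich*-KO sample it kept all 14. The plot of fold changes with each sample left out shows the range for each gene.

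**Figure D3:**
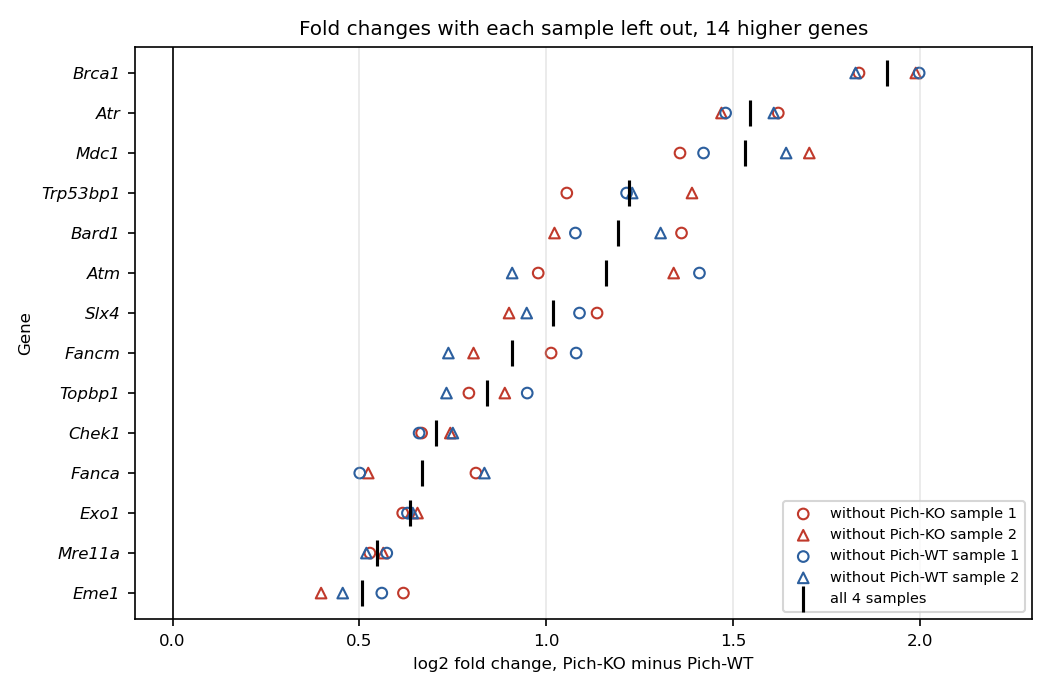
Fitted log2 fold changes of the 14 higher genes with all 4 samples (black bars) and with each sample left out (open symbols, colored by the group of the sample left out). All values lie above 0, the lowest at 0.40 for *Eme1*.

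The higher genes had longer models than the others. Gene model length, the summed length of the exons, had a median of 8478 bases in the 14 higher genes and 3795 bases in the other 23. Of the 14 genes of up to 4000 bases, 1 was higher (*Eme1*), of the 12 over 4000 and up to 8000 bases 5 were, and of the 11 over 8000 bases 8 were. Median log2 fold changes in these classes were 0.09, 0.48 and 0.84. Among the 12184 protein-coding genes of the same expression range the shares higher in these classes were 12.2%, 13.2% and 18.6%. Over the 37 genes, which share the same 4 libraries, Spearman's rho of length with log2 fold change was 0.59. Over the 12184 genes it was 0.07. Over 58 other genes of these pathways it was 0.37, but their longest class did not have the largest share. There 2 of 18 genes were higher up to 4000 bases, 13 of 35 in the middle class and 1 of 5 over 8000 bases, with median log2 fold changes of 0.18, 0.42 and −0.11. Per kb, the median level in *Pich*-WT was 44.4 normalized counts for the 14 higher genes and 112 for the others, and in *Pich*-KO it was 106 and 127. The part of length in the differences was not tested.

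**Figure D4:**
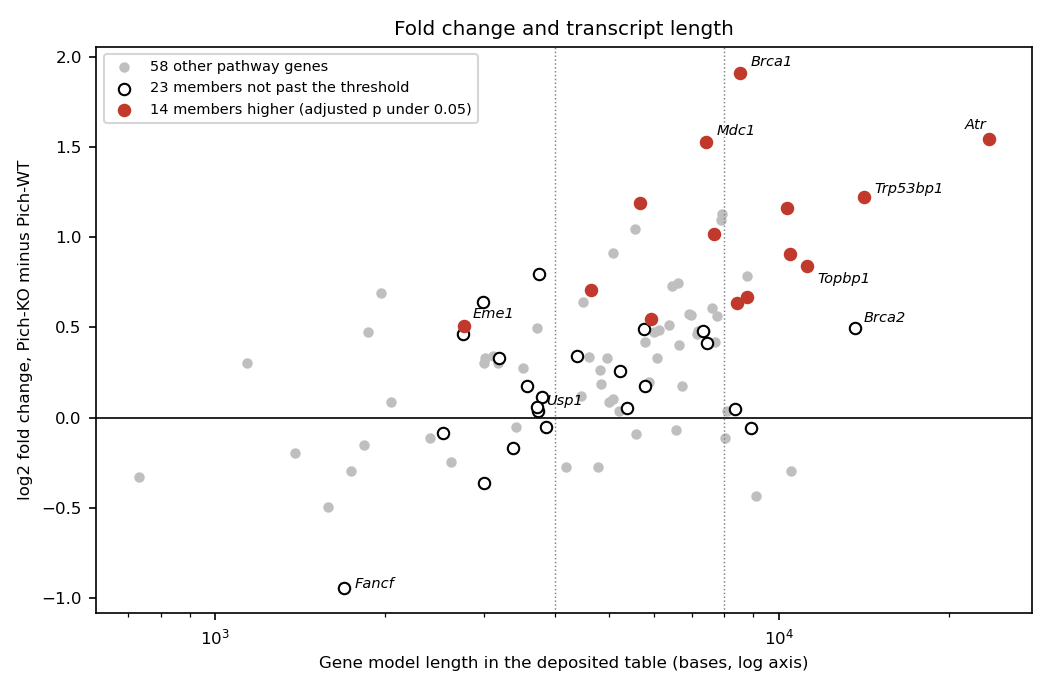
Log2 fold change (*Pich*-KO minus *Pich*-WT) against gene model length in bases (log axis). Red points are the 14 higher genes, open circles the other 23 and gray points 58 other genes of the same pathways. Dotted lines mark 4000 and 8000 bases, and 8 of the 11 genes to the right of the second line are red.

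The library kit was unstranded, so reads on overlapping genes cannot be told apart by strand, and the counting is not described. The models of 15 of the 37 genes overlap another gene, 10 of them a protein-coding gene. Of the 14 higher genes, 4 overlap a protein-coding gene. *Fanca* overlaps *Zfp276* by 1446 bases, *Mre11a* overlaps *Ankrd49* by 203, *Trp53bp1* overlaps *Tubgcp4* by 5490, and *Eme1* overlaps *Lrrc59* by 221 and *Mrpl27* by 198. Among these neighbours *Lrrc59* was itself higher (log2 fold change 0.55, adjusted p = 0.00333 by limma). Of the genes that were near level, *Fancc* overlaps *2010111I01Rik*, which was higher (log2 fold change 1.81, adjusted p = 0.000702 by limma), and *Wdr48* overlaps *Cx3cr1*, which was lower (log2 fold change −2.18, adjusted p = 0.00012 by limma). Overlap was measured over whole gene models, introns included.

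Other genes of the same pathways were also more often higher than lower. Of 58 such genes, all found and tested, 16 were higher and 1 was lower, and their median log2 fold change was 0.32. The share higher was 27.6%, against the background of 7.58% over all genes and 13.8% over protein-coding genes of the expression range. *Fancd2*, the substrate of the FA core complex, had 737 and 873 normalized counts (*Pich*-KO) against 348 and 386 (*Pich*-WT) (log2 fold change 1.13, adjusted p = 0.00229 by limma). *Brcc3*, an X-linked deubiquitinase gene of the BRCA1-A complex, had 1588 and 1690 against 825 and 713 (log2 fold change 1.09, adjusted p = 0.00103 by limma). *Helq*, a helicase gene of crosslink repair, had 443 and 422 against 244 and 216 (log2 fold change 0.91, adjusted p = 0.00911 by limma). An absence of overlap between the groups was a condition for naming genes of this list.

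*Swi5* and *Sfr1*, whose products form a complex that acts in recombination, ran in opposite directions. *Swi5* had 3724 and 4088 against 1876 and 1898 (log2 fold change 1.05, adjusted p = 0.000369 by limma). *Sfr1* had 1875 and 1834 against 2645 and 2589 (log2 fold change −0.50, adjusted p = 0.0113 by limma), the one gene of the 58 that was lower past the threshold, while 15 had a negative fold change. Among the smaller rises past the threshold were those of *Tipin* and *Timeless*, which hold the fork together, at 0.47 and 0.49 (adjusted p = 0.012 and 0.0119 by limma).

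Genes of other processes and cell types moved with the same groups. Of 16 G1/S and replication genes, 10 were higher (background 7.58% of all genes) and 0 lower (9.6%), with a median log2 fold change of 0.39. Their summed normalized counts were 127029 and 132616 (*Pich*-KO) against 99448 and 96543 (*Pich*-WT), 1.33-fold higher. The 37 genes had the same ratio of sums, in which the most abundant genes weigh most. Single log2 fold changes ran from 0.09 to 0.64 in the G1/S genes and from −0.94 to 1.91 in the 37. Of 17 G2/M genes, 5 were higher and 1 lower, and the sum was 1.19-fold higher. Whether the 37 genes moved beyond the G1/S genes was not tested. In bulk samples, fewer cells of a type and less RNA per cell cannot be told apart.

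The 6 listed surface genes of LSK cells, *Ly6a*, *Kit*, *Ptprc*, *Cd34*, *Cd48* and *Slamf1*, were detected in every sample. Of these 6, 1 was higher and 1 lower. The background is 7.58% higher and 9.6% lower of all genes tested. Among the protein-coding genes in the expression range of the 37 genes it is 13.8% and 22.3%. *Ly6a*, the Sca-1 gene, was higher in *Pich*-KO (log2 fold change 1.74, adjusted p = 0.000167 by limma), and *Slamf1*, the CD150 gene, was lower (−0.90, adjusted p = 0.0445 by limma). *Kit*, with *Ly6a* the gene that defines the gate, did not pass the threshold (0.54, adjusted p = 0.114 by limma). The sum of the 6 genes was 27535 in *Pich*-KO sample 1, where *Cd34* gave 11420 of it, and 18713 to 19041 in the other samples. All 12 macrophage genes were lower, where the background of lower genes is 9.6% of all genes. Their sums were 9132 and 7915 (*Pich*-KO) against 55455 and 56359 (*Pich*-WT), and *Vsig4* was down to 2 and 0 reads in *Pich*-KO. Of the erythroid genes 6 of 7 were lower, and their sums were 28045 and 30798 against 153501 and 116313. All 5 endothelial genes were lower, with sums of 2102 and 1349 against 26051 and 17419. Among megakaryocyte genes 3 of 4 were lower (907 and 887 against 3870 and 2791), among hepatocyte genes 3 of 6 (2879 and 2376 against 4359 and 3807) and among lineage antigens 2 of 4 (660 and 674 against 2640 and 2163). The part of these cell types in the rise of the 37 genes was not tested. The plot of summed levels sets these lists side by side.

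**Figure D5:**
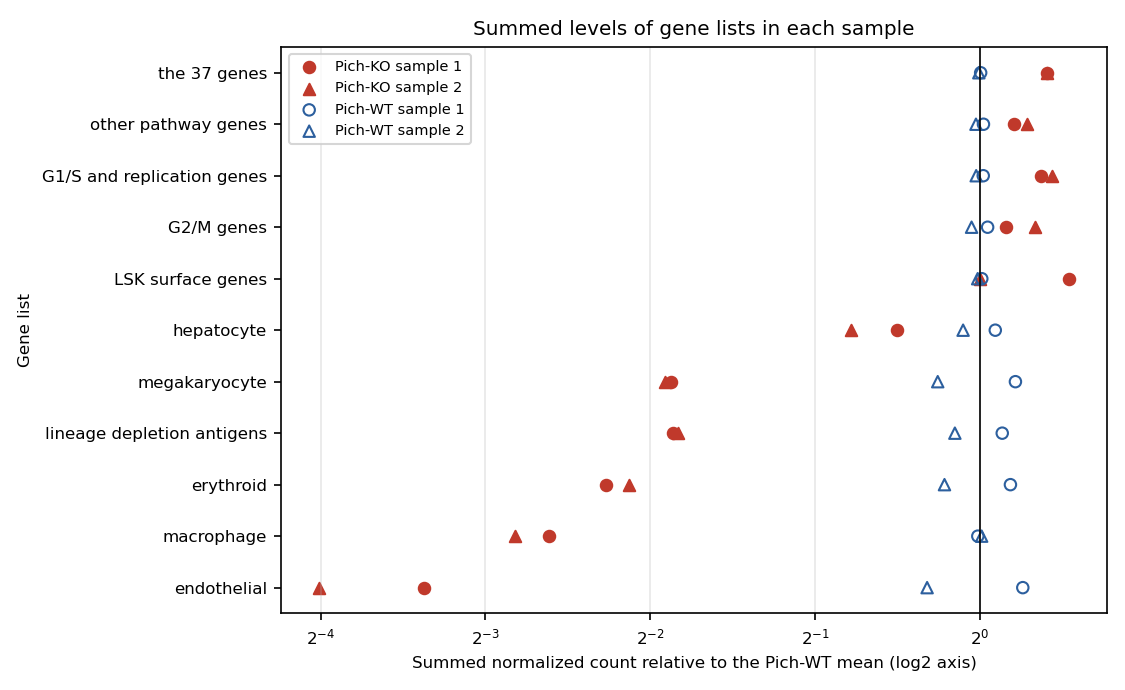
Summed normalized counts of each gene list in each sample, relative to the *Pich*-WT mean (log2 axis, each tick a doubling). The 37 genes and the G1/S genes lie to the right of the *Pich*-WT samples in both *Pich*-KO samples, and macrophage, erythroid, endothelial, megakaryocyte, hepatocyte and lineage lists lie to the left.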

How the data were processed

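Libraries of sorted LSK cells, 2 *Pich*-KO and 2 *Pich*-WT, were made with an unstranded TruSeq kit. The authors deposited one table of signal values, reads per gene divided by 1 size factor per sample. Whole reads were recovered for 100% of values in each sample (tolerance 0.01 reads), and the difference between samples of the same group exceeded sampling noise (chi-square per degree of freedom 17.7 and 9.54). The submitters' processing notes name Bowtie 0.12.2 and builds mm8 and mm9, while 36 of 37 genes had the start, end and strand of GENCODE M21 (GRCm38), so coordinates are given on GRCm38. The counter and the test are not given in the sources used here. The authors' group means, fold changes and p-values, also in the table, were not used.

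Groups, taken from the sample titles, were compared with limma 3.58.1 (R 4.3.3) on log2(value + 1), with a variance trend, a minimum mean of 1 and Benjamini-Hochberg adjustment. Alternatives were edgeR 4.0.16 on recovered reads with TMM or upper-quartile scaling, DESeq2 1.42.0, a pseudocount of 0.1, no filter, at least 10 counts in every sample, no variance trend, a minimum absolute log2 fold change of 1, a replicate block and leaving out each sample. edgeR with each sample left out was added after seeing the data. Scripts were tested on simulated data. Genes, gene lists and motifs were chosen with earlier results of these data known. Values in every sample are given for genes past the threshold and for those with the smallest change, 2 in each direction, and of the 58 other pathway genes the rule was to name the 4 largest and 4 smallest changes past the threshold; the values of 1 gene are not reported here. Values per sample of further genes were chosen after they were seen. Of the marker genes *Ahsp* was not analysed here.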

Additional observations from a re-analysis of the deposited data

How the results depend on the processing

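Precision is limited by 2 samples in each group. Without a variance trend, 0 genes passed in any count: of all genes, of the 37 genes or of the 58 other pathway genes, higher or lower, and by its construction a minimum absolute log2 fold change of 1 left 901 of all genes higher, 7 of the 37, 3 of the 58 higher and 0 of the 58 lower. Over the fits that left out 1 sample, by limma and edgeR, all genes higher ran from 0 to 3685 and lower from 0 to 3917, the 37 genes higher from 0 to 20 and lower from 0 to 1, the 58 genes higher from 0 to 29 and lower from 0 to 1, and the median log2 fold change of the 37 genes from 0.40 to 0.52. The values of 0 came from limma, except those for lower genes of the 37 and 58; the cause was not tested. In these fits the sign turned for 6 of the 37 genes with fold changes near 0 or wide spread: *Fancc* (−0.065 to 0.19), *Usp1* (−0.031 to 0.14), *Wdr48* (−0.088 to 0.0071), *Rad51c* (−0.078 to 0.77), *Rad50* (−0.0095 to 0.15) and *Rbbp8* (−0.12 to 0.024). Under the other alternatives no sign turned among the 37. The 37 genes held 16 higher by DESeq2, 17 with at least 10 counts in every sample (*Fancf* was not tested), 18 by edgeR under either scaling, and 12 without a filter or with a pseudocount of 0.1, where *Eme1* and *Fanca* were lost.

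Replicate numbers are not said to pair samples, and the deviations of the samples numbered 1 had a correlation of 0.048 over 10452 genes. With the replicate block, 17 of the 37 genes were higher and 0 lower, the further genes being *Brca2*, *Rad51b* and *Xrcc3*, and of the 58 genes 22 were higher and 1 lower.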
